A study of Mus musculus with 2 samples.

Results

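The clustered protocadherins are 58 genes in a row on the forward strand of mouse chromosome 18, from base 36930184 to base 37841873 of the mm10 assembly, a span of 911.7 kb. They were taken as the genes whose GENCODE symbol starts with Pcdha, Pcdhb or Pcdhg and goes on with a number, with or without a letter a, b or c before it. They comprise 12 alpha genes, 22 beta genes, 12 gamma a genes, 7 gamma b genes and 5 C-type genes, and were set beside 21698 other protein-coding genes. The set holds 57 protein-coding genes and Pcdhgb8, which the annotation calls a polymorphic pseudogene. The annotation gives 2 gene records the symbol Pcdha11, and the record whose 5′ end lies at 37005203 is called Pcdha10 here, after the RefSeq gene with the same start.

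The study mapped the DNA-binding protein CTCF by chromatin immunoprecipitation and sequencing in whole kidney of mice of strain B6NCrl on the day of birth (age 0 days). It has 1 group of 2 libraries, replicate 1 and replicate 2, with no treatment, engineered allele or second group named in the labels, and the sex of the animals was not collected. The labels number the libraries as biological replicates 1 and 2 but give both the same biosample and donor identifiers, so the spread between them may be technical. Peak positions alone do not report which cell types the tissue held, so the kidney label was not checked against marker expression.

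Clustered protocadherins are cell adhesion proteins of the cell surface, best known in neurons, where each cell uses a small, variable subset of them. In the alpha and gamma clusters every gene has its own promoter and its own large first exon, called a variable exon, which is spliced to 3 constant exons that the cluster shares, whereas each beta gene is a single exon. Promoter choice is known to depend on loops between promoters and distant enhancers that CTCF and cohesin hold in place, and CTCF is known to bind a conserved element in most of these promoters. Pcdhac2, Pcdhb1, Pcdhgc4 and Pcdhgc5 are described as lacking that element, and the alpha genes other than the C-type ones as having a further CTCF site inside the variable exon.

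A peak of the optimal list, the longer of the 2 lists that the authors thresholded by a reproducibility measure, lay at the promoter of 43 of the 58 members, or 74.1%. The share was 39.3% of the other protein-coding genes. A promoter peak is one whose summit, the position of highest signal, lay within 1 kb of an annotated transcription start site (TSS). By cluster, promoter peaks were listed for 7 of 12 alpha genes (58.3%), 17 of 22 beta genes (77.3%), 11 of 12 gamma a genes (91.7%), 6 of 7 gamma b genes (85.7%) and 2 of 5 C-type genes. The shorter conservative list held one for 34 members (58.6%), against 36.5% of other genes. The optimal list also holds peaks without a counterpart in 1 library: Pcdhga4 had no peak within 1 kb of a TSS in replicate 2. In a tissue sample, binding in fewer cells and weaker binding in each cell cannot be told apart.

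The members held 45 promoter peaks in all, because Pcdha12 and Pcdhga7 had more than 1. No promoter peak served more than 1 member, as neighbouring gene starts lay at least 3779 bp apart. Peaks were ordered by signal percentile, the share of peaks in a list with a lower signal. The 45 peaks had a median percentile of 32.3 (range 0.638 to 71.2), and the 10854 promoter peaks of other genes one of 42.6. A member was thus more often listed with a promoter peak than another gene, while the peaks it was listed with stood lower in the list.

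**Figure D1:**
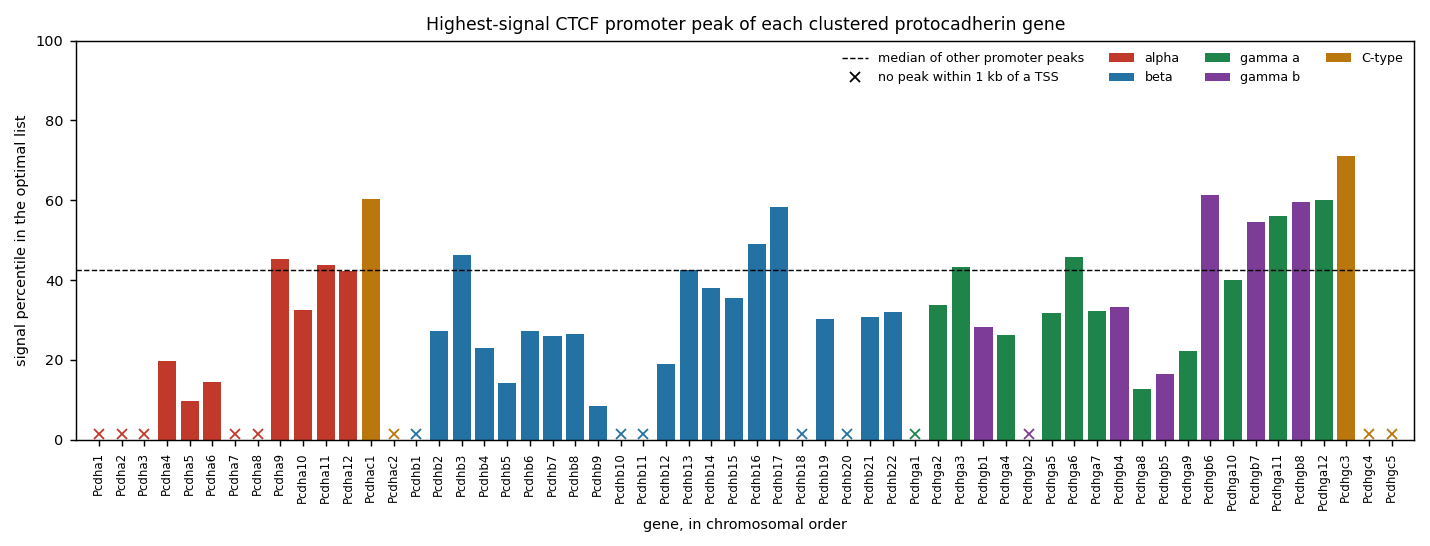
Signal percentile in the optimal list (vertical axis) of the highest promoter peak of each of the 58 genes, in chromosomal order; crosses mark the 15 genes with no promoter peak and the dashed line the median of other promoter peaks, 42.6. Bars past the 50% mark stand at 8 genes, among them both C-type genes with a peak and 5 genes at the end of the gamma a and b run.

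Only 8 members had a promoter peak in the 50% of optimal peaks with the highest signal (13.8%), against 19.8% of other genes. Library ranks below count from 1, the highest signal in that library's own list. The 8 were Pcdhac1, Pcdhb17, Pcdhgb6, Pcdhgb7, Pcdhga11, Pcdhgb8, Pcdhga12 and Pcdhgc3. No alpha gene was among them. The last 4 gamma a and b genes in chromosomal order and Pcdhgb6 were, and Pcdhga10 between them, with ranks of 39866 and 42649 in replicates 1 and 2, was not.

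The C-type genes are the last 2 of the alpha cluster and the last 3 of the gamma cluster, and are known to be used by most neurons rather than chosen at random. Pcdhgc3 had the highest peak of any member, at percentile 71.2, from 37806218 to 37806417. It ranked 18748 in replicate 1 and 18599 in replicate 2. Pcdhac1 had a peak at percentile 60.3, ranked 25585 and 27151. For both genes the libraries gave similar ranks, and they were the only C-type genes with a promoter peak.

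The other 3 C-type genes, Pcdhac2, Pcdhgc4 and Pcdhgc5, had none. A peak within the 500 bp before the start codon, called an upstream peak here, was listed for Pcdhac2 at rank 263174 of 300000 in replicate 1 and not in replicate 2. For Pcdhgc4 it ranked 93425 in replicate 1 and 144735 in replicate 2, and for Pcdhgc5 it ranked 127929 in replicate 1 and was not listed in replicate 2. Pcdhb1, the first beta gene, was the only beta gene with no upstream peak in either library. The 65482 highest peaks of a library, as many as the optimal list holds, are called its upper set here. None of the 4 genes described as lacking the conserved promoter element had a promoter peak in the upper set of either library.

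The alpha genes with the highest percentiles were the last 4, beside the C-type genes, although Pcdha3 further upstream ranked above Pcdha10 in replicate 1. Pcdha9 had the highest percentile, 45.3, with ranks of 34244 and 43284 in replicates 1 and 2. Pcdha11 followed at 43.7, with ranks of 37373 and 37961. Pcdha12 stood at 42.2, with ranks of 35289 and 48391, and Pcdha10 at 32.5, with ranks of 48972 and 41025. These 4 neighbouring genes were in the upper set of both libraries.

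Of the first 8 alpha genes, Pcdha4, Pcdha5 and Pcdha6 had a promoter peak, and Pcdha1, Pcdha2, Pcdha3, Pcdha7 and Pcdha8 had none. The upstream peak of Pcdha5, at percentile 9.60, was listed at rank 67872 in replicate 1 and not in replicate 2, so it lay outside both upper sets. Pcdha3 had an upstream peak at rank 46901 in replicate 1 and none in replicate 2. Those of Pcdha1 and Pcdha8 were likewise listed in replicate 1 alone, at ranks 88843 and 132209. Pcdha2 ranked 67559 and 157730, and Pcdha7 ranked 99911 and 104925, in replicates 1 and 2. The library lists thus held an upstream peak at each of these 6 genes, in the upper set for Pcdha3 in replicate 1 alone.

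The promoter peaks of Pcdha4 and Pcdha6 lay inside the coding part of the variable exon. The summit of Pcdha4 stood 465 bp after the start codon at percentile 19.6, and that of Pcdha6 450 bp after it at 14.4. Pcdha12 had both kinds of peak, with its second summit 472 bp after the start codon at percentile 19.9. A summit 300 to 700 bp after the start codon, called an exon peak here, was listed for 10 of 12 alpha genes in replicate 1, for 8 in replicate 2 and for 7 in both. The window was drawn after the peak positions were known, and other genes were not counted in it. Within 1 kb of a TSS, the whole library lists held a peak at 71.5% of other genes in replicate 1 and 68.6% in replicate 2.

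Exon peaks were otherwise rare. None of the 22 beta or 7 gamma b genes had one in either library. Pcdhga6 had one in replicate 1 alone, at rank 185216, as did Pcdhgc3, at rank 283199. Among the alpha genes most exon peaks ranked low, with 4 in the upper set of replicate 1 and 1 in that of replicate 2. The one in both was at Pcdha4, with ranks of 54716 and 57777. For Pcdha6 the exon peak ranked 52569 in replicate 1 and 239924 in replicate 2, where the highest peak of that gene ranked 55791 and had its summit 184 bp after the start codon.

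**Figure D2:**
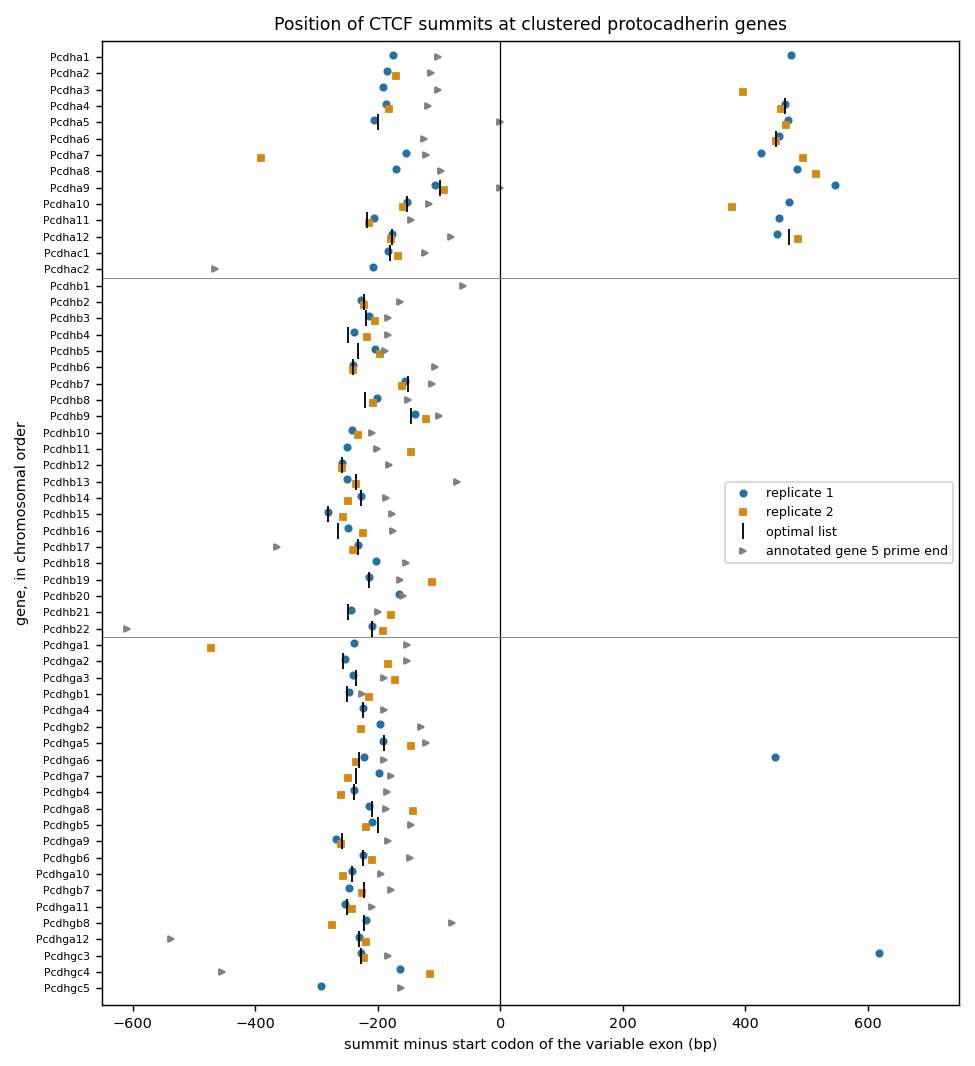
Position of CTCF summits relative to the start codon (bp, horizontal axis) for each gene in chromosomal order from top to bottom, in replicate 1, replicate 2 and the optimal list, with the annotated gene 5′ end; lines part the alpha, beta and gamma clusters. Summits form a column before the start codon in all 3 clusters and a second column after it in the alpha genes, listed for 10 of 12 of them in replicate 1 and 8 in replicate 2.

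Summits took up a narrow range of positions. In the optimal list 41 members had an upstream peak, with a median position of -227 bp relative to the start codon (quartiles -240 and -210 bp, range -282 to -99 bp). Relative to the nearest TSS, 37 of the 45 promoter summits lay 1 to 150 bp upstream, against 27.1% of the promoter peaks of other genes. The median position was -52 bp for members (quartiles -76 and -40 bp) and -31 bp for other promoter peaks (quartiles -216 and 200 bp). Relative to the start codon the medians were -177 bp in 5 alpha genes, -233 bp in 17 beta genes and -231 bp in 17 gamma a and b genes.

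The libraries placed the upstream summit a median of 16 bp apart in the 47 genes where both listed one, with a largest gap of 237 bp at Pcdha7. Some annotated gene ends stood away from the column of summits. Pcdhb17, Pcdhb22 and Pcdhga12 had summits 131, 400 and 306 bp after the annotated 5′ end, yet at -233, -210 and -231 bp relative to the start codon. For Pcdha5 and Pcdha9 the annotated 5′ end is the start codon itself, and their summits lay at -200 and -99 bp.

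The 22 beta genes stand between the alpha and gamma clusters and share no constant exons. Pcdhb17 had the highest peak, at percentile 58.2, with ranks of 27625 and 27654 in replicates 1 and 2. Pcdhb16 stood at 49.1 with ranks of 29940 and 45849, Pcdhb3 at 46.2 with ranks of 35098 and 42166, and Pcdhb13 at 42.6 with ranks of 40921 and 33968. The lowest were Pcdhb9, at 8.45 with ranks of 63149 and 98005, and Pcdhb5, at 14.1 with ranks of 78807 and 60747. The median over 17 beta promoter peaks was 30.3.

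Besides Pcdhb1, the beta genes with no promoter peak were Pcdhb10, Pcdhb11, Pcdhb18 and Pcdhb20, and each of them had an upstream peak in replicate 1. Pcdhb10 ranked 46739 in replicate 1 and 153757 in replicate 2. Pcdhb11 ranked 46619 and 138906. Pcdhb20 ranked 56221 and Pcdhb18 ranked 74065 in replicate 1, and neither had an upstream peak in replicate 2. Pcdhb10, Pcdhb11 and Pcdhb20 thus had no thresholded peak and a large gap between the libraries. Large gaps were also found at members with a promoter peak, such as Pcdhgb5, with ranks of 48182 and 124831 in replicates 1 and 2.

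The gamma a and gamma b genes are interspersed along the gamma cluster and are the most often listed members. Among gamma b genes the highest were Pcdhgb6 at percentile 61.4, with ranks of 26426 and 24394, and Pcdhgb8 at 59.6, with ranks of 28915 and 24360. Pcdhgb7 stood at 54.5 with ranks of 28079 and 33903, and Pcdhgb4 at 33.3 with ranks of 41490 and 56787. The lowest were Pcdhgb5, at 16.4 with ranks of 48182 and 124831, and Pcdhgb1, at 28.1 with ranks of 48239 and 47008. Pcdhgb2 had no promoter peak, with ranks of 64192 and 84670 for its upstream peak.

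Among gamma a genes Pcdhga12 stood highest at 60.1, with ranks of 27721 and 25582. Pcdhga11 followed at 56.0 with ranks of 29095 and 30685, Pcdhga6 at 45.8 with ranks of 32857 and 49151, and Pcdhga3 at 43.3 with ranks of 34700 and 35606. The lowest were Pcdhga8, at 12.7 with ranks of 65341 and 56824, and Pcdhga9, at 22.3 with ranks of 58408 and 46255. Pcdhga1, the first gene of the cluster, had no promoter peak, and its upstream peak ranked 56848 and 75041. The lowest of all 45 promoter peaks, at 0.638, was a second peak of Pcdhga7, whose main peak stood at 32.3.

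Signal was higher towards the 3′ end of the gamma a and b run in both libraries. Spearman's rho between gene order and upstream signal was 0.55 in replicate 1 (n = 19 genes) and 0.58 in replicate 2 (n = 18). It was 0.5 (n = 11) and 0.75 (n = 7) over the alpha genes, and 0.24 (n = 21) and 0.11 (n = 19) over the beta genes. These values describe genes that share a library and a locus and are not independent.

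The libraries differed in how many members they listed. In replicate 1 the upper set held a promoter peak at 47 members, or 81%, against 39% of other genes. In replicate 2 it held one at 34 members, or 58.6%, against 39.2% of other genes. Both upper sets held one at 33 members (56.9%), against 33.5% of other genes. Both upper sets were cut at the same number of peaks, so near-equal counts over other genes were largely set by that cut. Whether other genes with peaks of similar rank differed as much between the libraries was not counted.

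A promoter peak was in the upper set of replicate 1 and not of replicate 2 at 14 members (24.1%), against 5.51% of other genes. Among genes with a promoter peak in the upper set of replicate 1, these were 14 of 47 members and 1196 of 8458 other genes. The 14 were Pcdha3, Pcdhb4, Pcdhb6, Pcdhb8, Pcdhb9, Pcdhb10, Pcdhb11, Pcdhb19, Pcdhb20, Pcdhga1, Pcdhga4, Pcdhga7, Pcdhgb2 and Pcdhgb5. Several had a wide gap in rank: Pcdhb4 ranked 47258 and 89061, Pcdhga7 37895 and 81581, Pcdhb19 39733 and 73148, in replicates 1 and 2. Pcdhb6 ranked 42932 and 70367, and Pcdhb8 46433 and 71688. Pcdhga4 ranked 42548 in replicate 1 and had no upstream peak in replicate 2. The opposite, a peak in the upper set of replicate 2 alone, held for Pcdhb5 (1.72%), against 5.70% of other genes.

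Counted within 1 kb of a TSS, the gap was one of rank more than of presence. The whole list of replicate 1 held a peak within 1 kb of a TSS at all 58 members, against 71.5% of other genes, and that of replicate 2 at 53 members, against 68.6%. All 53 were in both whole lists (91.4%), against 63.6% of other genes. Among the 42 members with a promoter peak that also had one in both whole lists, 27 ranked higher in replicate 1 and 15 in replicate 2. Of other genes 49.1% ranked higher in replicate 1. An upstream peak was listed at 56 members in replicate 1 and 47 in replicate 2, and in the upper set at 46 and 32. Other genes were not counted in the upstream window, so these counts have no share to stand beside. Over the 47 members with an upstream peak in both lists, rho between the libraries' signals was 0.66. The part of sequencing depth or immunoprecipitation quality in this gap was not tested, as the lists hold no read counts.

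**Figure D3:**
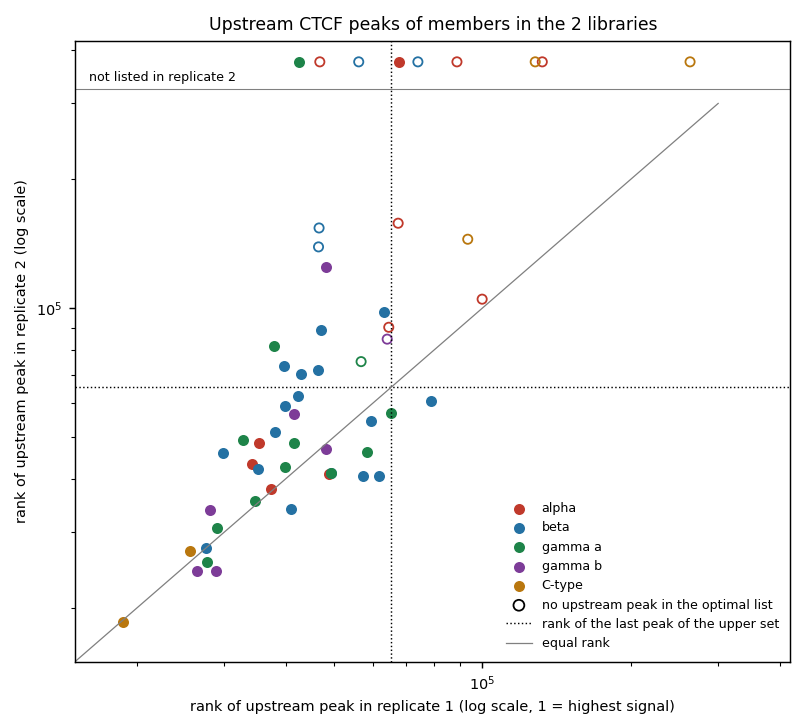
Rank of each member's upstream peak in replicate 1 (horizontal, log scale) and replicate 2 (vertical, log scale), 1 being the highest signal; dotted lines mark the last peak of the upper set, 65482, and the strip at the top holds genes not listed in replicate 2. The genes of highest signal lie near the line of equal rank, and 32 of 47 genes listed in both rank higher in replicate 1.

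CTCF reads DNA through a row of zinc fingers, and its motif has a direction, which at loop anchors is known to face the partner anchor. A motif matrix of 19 bp was learned from optimal peaks on the other chromosomes and scored on both strands. A window was called a match where its best score, in log2 odds, reached 14.3. That score was passed by 1 in 10000 control positions, which lay 2 kb from peaks and outside soft-masked repeat sequence. The scored windows could hold such sequence, so this rate need not hold in them. A match describes the letters of a window and does not show a bound site.

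The members' best upstream scores mostly fell short of 14.3 and mostly stood on the gene strand. The best score in the 500 bp before the start codon was on the gene strand in 55 of 58 members. From 300 bp before to 100 bp after the 5′ end, the best score was on the gene strand in 52 of 58 members, against 52.4% of other genes, with a median score of 7.58 in members and 2 in other genes. In that window 1 member had a match, against 3.53% of other genes. Within 100 bp of the summit, 4 of 45 member promoter peaks had a match, against 27.5% of other promoter peaks. Of these matches 3 were at the peaks inside the variable exons of Pcdha4, Pcdha6 and Pcdha12, and 1 was at an upstream peak, that of Pcdhga12. Also within 100 bp of the summit, the best score was on the gene strand at 42 of 45 member peaks, against 53% of other promoter peaks.

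The upstream scores parted the clusters. Their median was 11.2 in alpha, 10.9 in beta, 1.54 in gamma a, 0.847 in gamma b and 0.947 in C-type genes. The matches before the start codon were Pcdhb18, at 14.4, and Pcdhga12, at 15.3. A looser score of 6.32, passed by 1 in 1000 control positions, was chosen after the values were seen. It was passed by 11 of 12 alpha and 18 of 22 beta upstream windows. In gamma a it was passed by 3 of 12, in gamma b by 0 of 7 and in C-type genes by 1 of 5. All of these were on the gene strand. A window takes the best of many positions, so it passes more often than a single position does. The share of other genes' windows that pass was not counted. Within 100 bp of the summit, 25 of 45 member promoter peaks passed, against 61.5% of other promoter peaks. Low median scores were thus found both in the gamma a and b genes, with the largest shares of promoter peaks, and in the C-type genes, with the smallest.

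Within a cluster, higher scores did not always stand beside higher signal. Pcdhb18 had the highest upstream score of any beta gene and no promoter peak, whereas Pcdhb17, the beta gene of highest signal, scored 3.29. With and without a promoter peak, the median upstream score was 10 and 11.3 in alpha and 10.1 and 14.0 in beta genes. It was 1.87 and -3.65 in gamma a and b and 4.46 and 0.947 in C-type genes, so its order turned between clusters. Only 2 gamma a and b genes lacked a peak, and the C-type medians rest on 2 and 3 genes. Spearman's rho between score and upstream signal in replicate 1 was 0.26 over 11 alpha genes, -0.33 over 21 beta genes and 0.45 over 19 gamma a and b genes. Over all 22 beta genes, 1 of them with a match, the best upstream score was centred at a median of -240 bp relative to the start codon (quartiles -247.5 and -216 bp). In gamma a genes its centre ranged from -424 bp in Pcdhga9 to -42 bp in Pcdhga5.

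In alpha genes the median best score was higher in the exon window, at 16.3, than in the upstream window, at 11.2. Pcdha2, Pcdha3 and Pcdha11 went the other way and scored higher upstream. A match was present in the exon window of 8 of 12 alpha genes, Pcdha1, Pcdha4, Pcdha6, Pcdha7, Pcdha8, Pcdha9, Pcdha10 and Pcdha12, and in none of the other 46 members. The share of genes outside the clusters with a match in such a window was not counted. Scores ran up to 22.4 in Pcdha1, and were 19.9 in Pcdha4, 18.1 in Pcdha6 and 17.5 in Pcdha12, the 3 genes with an exon peak in the optimal list. The best exon score was centred 453 to 465 bp after the start codon on the gene strand in 10 of 12 alpha genes, and at exactly 462 bp in 7. The exceptions were Pcdha2, whose best score of 8.96 was on the other strand, and Pcdha9, at 552 bp.

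The best upstream and exon scores stood at a similar distance in all 11 genes that could be compared. In these, the alpha genes with both best scores on the gene strand, their centres lay 632 to 682 bp apart, with a median of 655 bp. None of the alpha upstream windows held a match, and genes of 1 cluster are not independent. Pcdha9 was no exception in distance. Its best upstream score was centred at -113 bp relative to the annotated start codon, and those of the others at -220 to -167 bp. Pcdha1 had the highest exon score and an exon peak at rank 96034 in replicate 1 alone, so that score and signal did not go together there.

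**Figure D4:**
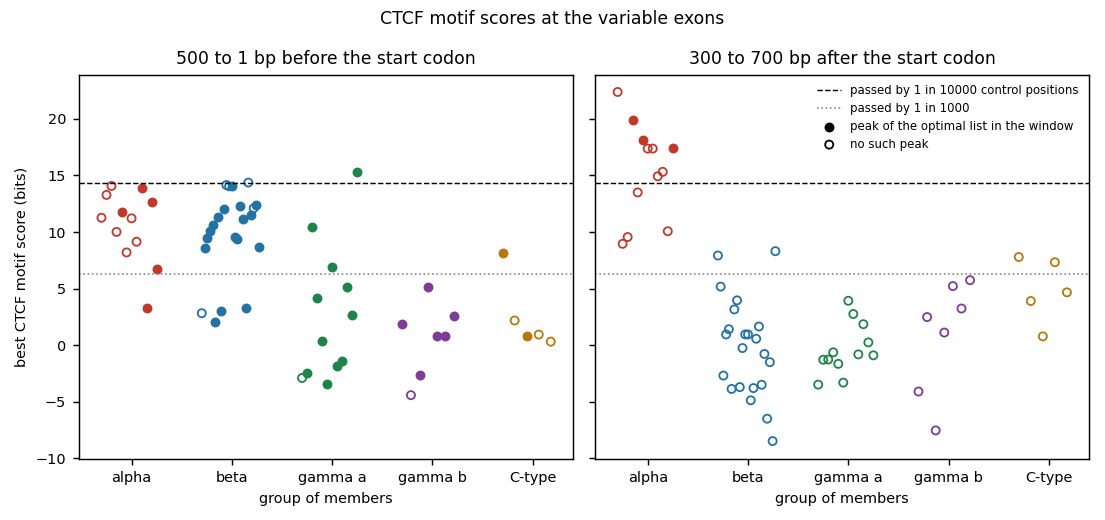
Best CTCF motif score (log2 odds, vertical axis) of each member in the 500 bp before the start codon (left) and 300 to 700 bp after it (right), by group; filled points have a peak of the optimal list in that window, and lines mark the scores passed by 1 in 10000 and 1 in 1000 control positions. On the right 8 alpha genes pass the upper line and no other member does, and on the left most alpha and beta genes lie between the lines.

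Promoter base composition also differed between the clusters. The CpG ratio, the observed over the expected number of CG pairs within 500 bp of the 5′ end, had a median of 0.684 in alpha, 0.378 in beta, 0.594 in gamma a and b and 0.67 in C-type genes, and of 0.558 in other genes. Other genes whose CpG ratio lay in the range of the beta genes had a promoter peak in 28% of cases, those in the alpha range in 55.2%, those in the gamma a and b range in 51% and those in the C-type range in 46.2%. The beta genes, at 77.3%, and the gamma a and b genes thus stood above other genes in their range. The alpha genes, at 58.3%, stood close to other genes in theirs, but Pcdha4 and Pcdha6 had only an exon peak. An upstream peak was listed for 5 of 12 alpha genes. Each range ran from the lowest to the highest member, so genes were not matched gene by gene. The GC content had a median of 44.9% in members and 54.9% in other genes.

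Some promoters hold sequence that recurs elsewhere in the genome, which bears on how many reads can be placed. Of the 32-base words within 500 bp of the 5′ end, a median of 77.9% occurred once in the genome in alpha genes, 81.1% in gamma b genes, 98.1% in gamma a genes and 100% in beta and C-type genes. Among gamma b genes Pcdhgb1, Pcdhgb2 and Pcdhgb8 stood at 100%. The median was 100% in 456 other genes of the chromosome. Alpha genes with a promoter peak had a median of 76.7% and those without 79.8%, so the shares of single-copy words overlapped between them. How the authors treated reads with several placements is not given in the sources used here, and its part in the lower alpha count was not tested.

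The cluster span with 100 kb on each side held 57 optimal peaks, of which 12 were not promoter peaks of members. These 12 were 5 inside the span, none in the upstream flank and 7 in the downstream flank, and had a median percentile of 82.8. The one with its summit at 37935670 was a promoter peak of the neighbouring gene Diaph1. A motif match lay at 8 of the 12, and at 7 of the 11 outside any promoter, against 56.2% of all optimal peaks outside promoters, and all 8 were on the reverse strand, opposite to the genes. At the 4 member promoter peaks with a match the motif was on the gene strand.

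**Figure D5:**
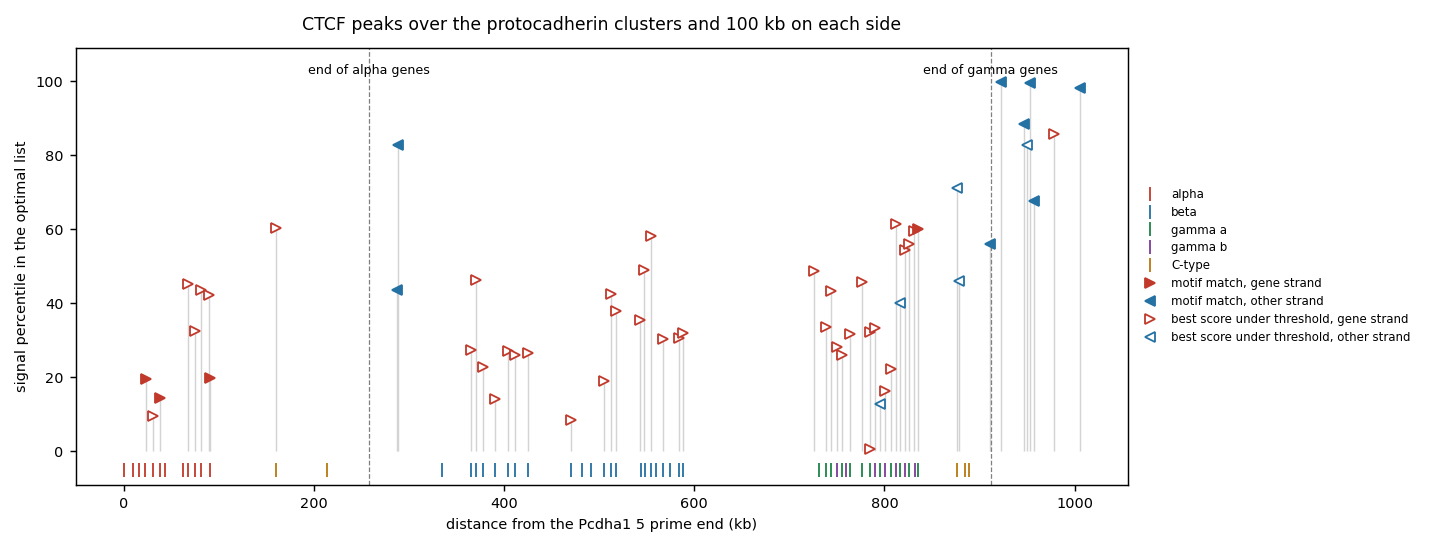
Signal percentile in the optimal list (vertical axis) of the 57 peaks over the clusters and 100 kb on each side, against distance from the Pcdha1 5′ end (kb); triangles point along the strand of the best motif score and are filled where it is a match, and ticks mark gene starts. Right-pointing triangles stand over the genes at low to middle percentiles, and filled left-pointing triangles stand after the alpha genes and after the gamma genes, up to percentile 99.8.

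After the alpha genes lay a pair of peaks, with summits 29.8 and 30.8 kb past the last alpha base, at 37217483 and 37218418. Their percentiles were 43.5 and 82.8, and both had a reverse motif match, with scores of 18.0 and 15.8. The second ranked 11008 in replicate 1 and 10493 in replicate 2, above every member promoter peak. An enhancer of the alpha genes is known from the stretch between the alpha and beta genes, and the peaks were not matched to its published position.

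Inside the span, a peak 6200 bp before Pcdhga1 (percentile 48.7) and one in the exon of Pcdhgc3 (45.9) had no match. The gamma end had its own reverse-facing peaks. A peak in the last exon of the gamma cluster, with its summit at 37841468 and a motif score of 23.5, stood at percentile 56.1. Beyond it, 6 peaks lay in introns of Diaph1, a gene on the far side that encodes a formin, an actin-assembly factor, and 1 at its promoter. The nearest, at 37852302, stood 10.4 kb past the cluster at percentile 99.8, with ranks of 204 and 120. Another, at 37883697, stood at 99.5 with ranks of 632 and 420, and the one at the Diaph1 promoter at 98.3 with ranks of 927 and 1528. These 3 stood higher than any peak inside the cluster, and each had a reverse match.

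Genes related to the members by family or function had promoter peaks as follows, against the same 39.3% of other genes. Of 12 protocadherin genes outside the clusters, 9 had a promoter peak, led by Pcdh1 at percentile 98.9, with its summit at -844 bp relative to the TSS, and Pcdh7 at 65.3. Of 8 genes for proteins that act inside the cell with clustered protocadherins, 5 had one, led by Wasf1, a subunit of an actin-regulating complex, at 77.1, and Axin1, a scaffold of Wnt signalling, at 64.4. Of 10 regulators of the clusters, 7 had one, led by Dnmt3b, a DNA methyltransferase, at 87.2, and Smc3, a cohesin subunit, at 84.3. Of 18 protein-coding neighbours, 6 had one, led by Diaph1 at 98.3 and Arap3 at 94.6. The neighbours include 3 predicted readthrough models that span the clusters, 1 of which, Gm42416, shares the peak of Pcdha4.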

How the data were processed

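The authors deposited 5 narrowPeak lists on mm10: 1 per library, 1 of both pooled, and conservative and optimal lists (59444 and 65482 peaks) thresholded for reproducibility, per the notes beside the files; each library list holds 300000 peaks. The deposited signal is the authors' peak caller's own value, taken here as an order within 1 list at a time, and the deposited −log10 q-value, which 60069 optimal peaks share at its highest, ranked nothing. Aligner, caller and thresholds were not given in the sources used here. Depth is unknown, since the lists hold no counts.

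Peaks were set against GENCODE M21 TSSs and the mm10 sequence with Python 3.11.15, numpy 2.4.6 and pandas 2.3.3. With 1 group, everything is described without tests. The 19 bp motif matrix was learned outside soft-masked sequence and chromosome 18. Placement of peaks and motifs was tested on simulated data. No base sequence of the cluster is reported here. Members, lists and windows were chosen with earlier results of these data known, and the upstream and exon windows after seeing peak positions. The text names all C-type genes, the 4 highest and 2 lowest genes of each other group, all genes without a promoter peak or with calls that differ between libraries, and the 2 highest of each other list. Alternatives changed the promoter window, TSSs, peak list, libraries and motif threshold.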

Additional observations from a re-analysis of the deposited data

How the results depend on the processing

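The count of 43 members with a promoter peak was 34 without replicate 1 and 47 without replicate 2, 34 in the conservative list, 48 in the upper set of the pooled list and 41 within 500 bp, and unchanged with 2500 bp, with gene 5′ ends only or with interval overlap. In the upper-signal 50% of optimal peaks it was 8, from 0 alpha, 1 beta, 2 gamma a, 3 gamma b and 2 C-type genes. With that setting left out, the call held in every alternative run for 31 members with and 9 without a peak. Pcdha4 and Pcdha6, with summits in the exon, were lost within 500 bp. The median percentile was 84.5 to 86.2 in the whole library lists, which are longer. The 4 motif matches became 0 at the score of 1 in 100000 and 0 with a matrix from all sequence. They were 2 in the conservative list and 2 to 5 with 1 library left out. At the score of 1 in 1000, chosen after seeing the data, 25 of 45 peaks passed, against 61.5% of other promoter peaks. The 12 peaks outside member promoters were 12 to 16. No paired analysis was possible because the study has 1 group. Depth is unknown, so a gene without a listed peak was not shown to lack binding, and whether the libraries stand for separate animals was not settled by the labels.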
